A study of Homo sapiens with 16 samples.

Results

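On the short arm of human chromosome 8, 44 genes from POLR3D to WRN were taken as a block, selected on RNA levels that were lower in PANC1 than in MiaPaCa2 cells across neighbouring genes. They are 44 of the 63677 genes in the count table and lie at chr8:22102646-31033654 in GRCh37, a stretch of 8.93 Mb in bands 8p21 to 8p12. In the annotation used here (GENCODE v44 lifted to GRCh37) every one of them is a protein-coding gene, and 31 further protein-coding genes of the count table lie between the first and the last. The level difference between the lines chose the block, so it is described below and not tested. The drug responses did not enter the choice and are tested, although the control libraries serve in both.

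MiaPaCa2 and PANC1 (Mia-PaCa-2 and PANC-1 in the labels) are established cell lines grown from human pancreatic ductal adenocarcinomas. The study asked how genistein, a plant isoflavone that binds estrogen receptors, changes the response to gemcitabine, a nucleoside analogue that blocks DNA synthesis. Each line had a control group without drug, a group with 40 nM gemcitabine, a group with 50 µM genistein and a co-treatment group with both at these doses, all for 24 h. Each of these 8 groups had 2 libraries, 16 in all, made from poly-A RNA, with 12943482 to 31991860 reads counted on genes. Each line stands for 1 tumour. The study's methods call the replicates biological without saying what separated them, such as culture or day, and p-values measure the spread between these libraries. The sources also do not say whether the controls received DMSO, the solvent of genistein.

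Neighbouring genes of this region share no one function. They include decoy receptors for the death ligand TRAIL, subunits of protein phosphatase 2A, enzymes of DNA repair and chromosome cohesion, RNA polymerase factors, and secreted or matrix proteins. Parts of the short arm of chromosome 8 are often lost in carcinomas. DNA was not sequenced here, so the number of gene copies and the activity of each copy cannot be told apart from these RNA levels, and neither can fewer expressing cells and less RNA per cell.

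Of the 44 members, 40 passed a filter on low counts over the 16 libraries. In the controls, 34 of these 40 were lower in PANC1, with a median log2 difference of -1.30, which is 2.47-fold lower, and quartiles of -1.68 and -0.41. Over all 17863 genes tested the median was 0.06 and 47.8% were lower in PANC1. A log2 difference of at least 0.4 in that direction, with a mean FPKM (a level scaled by transcript length and sequencing depth) above 1 in either line, was met by 30 of the 40 members and by 27.7% of all genes. On the scale of CPM (counts scaled to the TMM-normalized library size), the 8 PANC1 libraries all lay below the 8 MiaPaCa2 libraries for 27 of the 40, against 17.5% of all genes. Since the block was picked for this difference, nothing is read from these shares. Together the members took 0.233% to 0.261% of the counts of a MiaPaCa2 library and 0.110% to 0.118% of those of a PANC1 library.

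**Figure D1:**
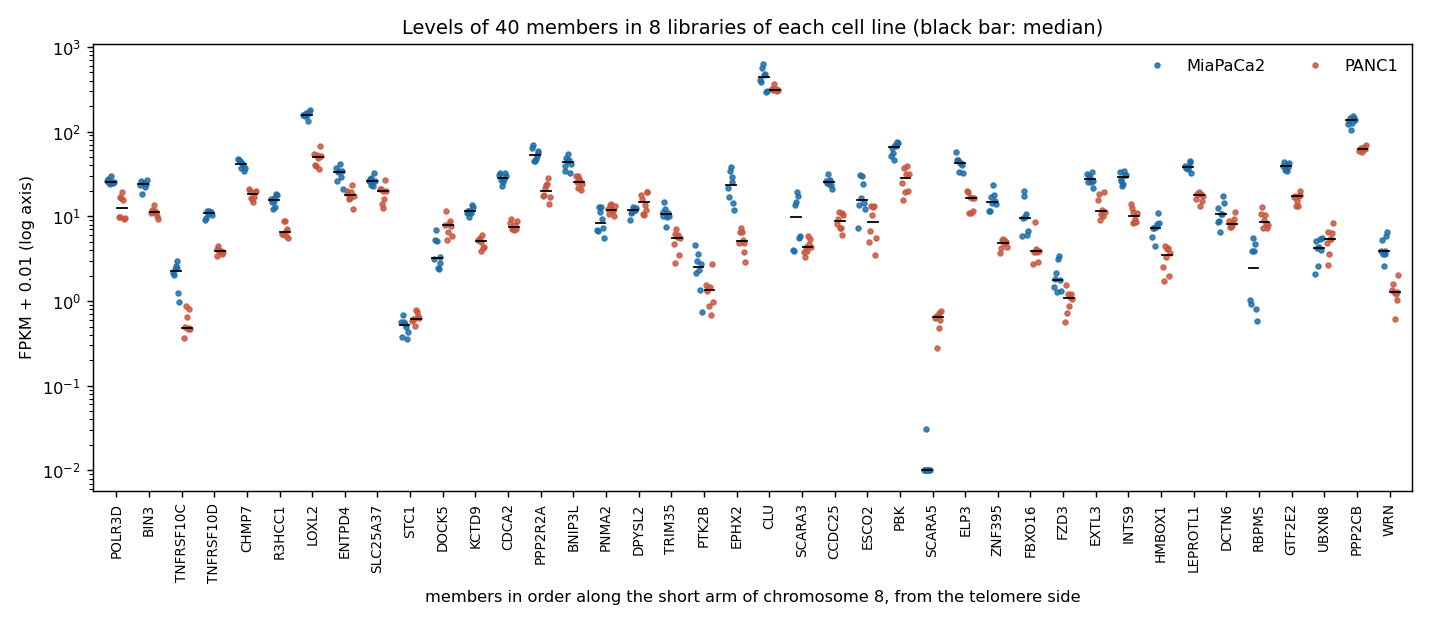
Level of each of the 40 members that passed the low-count filter, in FPKM plus 0.01 on a log axis, with 1 point for each of the 8 libraries of MiaPaCa2 (blue) and of PANC1 (red) and a black bar at the median, in order along the chromosome. PANC1 sits lower for most genes from end to end of the block, while SCARA5 and RBPMS sit higher in PANC1. DOCK5 has a higher median in PANC1 with overlapping libraries, at 2.41 to 6.88 FPKM in MiaPaCa2 and 5.30 to 11.4 in PANC1. CLU has medians of 439 FPKM in MiaPaCa2 and 313 in PANC1, also with overlapping libraries.

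The 7 members with roles in cell division and DNA maintenance were all lower in PANC1 in the controls, with a median log2 difference of -1.83. CDCA2, which directs protein phosphatase 1 to mitotic chromosomes, stood at 32.1 and 29.6 FPKM in the MiaPaCa2 controls and at 7.01 and 8.79 FPKM in the PANC1 controls. Over all conditions its 8 libraries ran from 23.0 to 32.4 FPKM in MiaPaCa2 and from 6.83 to 9.20 FPKM in PANC1, so the lines did not overlap. WRN, the RecQ helicase lost in Werner syndrome, was at 5.91 and 6.44 FPKM in the MiaPaCa2 controls and at 1.01 and 2.04 FPKM in the PANC1 controls. The log2 differences of these genes were -2.04 (SE 0.11) for CDCA2 and -2.02 (SE 0.26) for WRN. PPP2R2A, the B55 alpha regulatory subunit of protein phosphatase 2A, was at 58.7 and 56.1 FPKM in the MiaPaCa2 controls against 13.9 and 16.8 FPKM in the PANC1 controls, a log2 difference of -1.99 (SE 0.10). PPP2CB, a catalytic subunit of the same phosphatase, ran from 105.4 to 152.1 FPKM in MiaPaCa2 and from 57.4 to 69.3 FPKM in PANC1. ESCO2, an acetyltransferase that establishes sister chromatid cohesion, PBK, a mitotic kinase, and CHMP7, an ESCRT-III protein that acts in resealing the nuclear envelope, had control log2 differences of -1.83, -1.47 and -0.94.

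Among RNA polymerase and RNA processing genes, 4 of 5 were lower in PANC1 in the controls. INTS9, a subunit of the Integrator complex, ran from 22.8 to 34.3 FPKM in MiaPaCa2 and from 8.39 to 13.8 FPKM in PANC1, with a control log2 difference of -1.94. ELP3, the catalytic subunit of Elongator, POLR3D, a subunit of RNA polymerase III, and GTF2E2, a subunit of the general factor TFIIE, had differences of -1.66, -1.51 and -1.33. RBPMS, an RNA-binding protein, was the exception, with 0.576 to 5.49 FPKM in MiaPaCa2 and 7.22 to 12.8 FPKM in PANC1 and a control difference of 2.80 (SE 0.26) on the log2 scale. ZNF395 and HMBOX1, which encode DNA-binding transcription factors, were both lower in PANC1. ZNF395 was at 15.03 and 14.0 FPKM in the MiaPaCa2 controls and at 4.90 and 4.31 FPKM in the PANC1 controls, a log2 difference of -2.11 (SE 0.12). ZNF395 shares 35.0% of its exon length with FBXO16 on the same strand, so reads of this pair are assigned with uncertainty.

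The 2 decoy receptors that bind TRAIL without passing on a full death signal, TNFRSF10C and TNFRSF10D, were both lower in PANC1 in the controls. TNFRSF10D ran from 9.12 to 11.7 FPKM in MiaPaCa2 and from 3.41 to 4.44 FPKM in PANC1, with a log2 difference of -1.60 (SE 0.11). TNFRSF10C was scarce, with 14 to 55 counts per MiaPaCa2 library and 3 to 18 counts per PANC1 library. The death-inducing receptors TNFRSF10A and TNFRSF10B, which lie between members but are not of the list, had control log2 differences of -1.55 and -1.22.

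Members with roles in mitochondria, membranes and metabolism were lower in PANC1 in the controls, by unequal amounts. EPHX2, the soluble epoxide hydrolase, was at 14.5 and 11.8 FPKM in the MiaPaCa2 controls and at 3.82 and 2.90 FPKM in the PANC1 controls, a log2 difference of -2.01 (SE 0.14). BNIP3L, a receptor for mitophagy, and SLC25A37, which carries iron into mitochondria, had smaller log2 differences of -0.80 and -0.44. The SLC25A37 libraries of the lines overlapped on the CPM scale. The 4 members tied to ubiquitin and protein turnover, KCTD9, FBXO16, TRIM35 and UBXN8, had a median of -1.17 and ranged from -1.73 for KCTD9 to -0.02 for UBXN8. UBXN8 was at 4.04 and 5.58 FPKM in the MiaPaCa2 controls and at 6.43 and 8.33 FPKM in the PANC1 controls, so it was higher in PANC1 by FPKM while its counts gave a log2 difference of -0.02 (SE 0.25).

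The secreted, matrix and scavenger genes and the cytoskeleton and signalling genes were the mixed groups, with 4 of 6 and 4 of 7 members lower in PANC1 and medians of -0.17 and -0.31. LOXL2, which cross-links collagen, ran from 132 to 179 FPKM in MiaPaCa2 and from 36.4 to 67.4 FPKM in PANC1. CLU, the chaperone clusterin, was at 290.0 and 304 FPKM in the MiaPaCa2 controls and at 303 and 309.7 FPKM in the PANC1 controls, a log2 difference of -0.05 (SE 0.10). SCARA3, a scavenger receptor, was at 5.50 and 5.86 FPKM in the MiaPaCa2 controls and at 5.35 and 4.32 FPKM in the PANC1 controls, a log2 difference of -0.28 (SE 0.16). These genes were thus at like levels in the controls, although CLU was the member with the highest FPKM in both lines. PTK2B, a focal adhesion kinase homologue, varied within groups, with 2.74 and 0.734 FPKM in the MiaPaCa2 controls and 2.76 and 0.976 FPKM in the PANC1 controls. FZD3, a Wnt receptor, had the lowest log2 difference of the 40, at -2.15 (SE 0.26), although its FPKM values of 1.74 and 1.30 in the MiaPaCa2 controls and 1.20 and 1.03 in the PANC1 controls lay closer together. Its counts ran from 93 to 214 per MiaPaCa2 library and from 23 to 77 per PANC1 library.

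In the controls, 6 members were higher in PANC1. Besides RBPMS these were PNMA2, STC1, DPYSL2 and DOCK5, with log2 differences of 0.82, 0.62, 0.54 and 0.54, and SCARA5. PNMA2 encodes a paraneoplastic neuronal antigen, STC1 the hormone stanniocalcin, DPYSL2 a microtubule regulator of growing axons and DOCK5 an activator of Rac. SCARA5, a ferritin receptor, had 0 and 0 counts in the MiaPaCa2 controls and 49 and 75 counts in the PANC1 controls, at least 11.4-fold higher in PANC1 against a floor of 3 counts per library. DOCK5, SCARA5 and RBPMS had all 8 PANC1 libraries above all 8 MiaPaCa2 libraries on the CPM scale, while 10 members overlapped between the lines. The shares of all genes with these patterns were not computed, so nothing is read from these counts. The 4 members that did not pass the filter, PEBP4, NEFM, NEFL and EBF2, had at most 7 counts in any library.

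The difference between the lines was also described under each drug. The median over the 40 members was -1.26 with gemcitabine, -1.32 with genistein and -1.31 with co-treatment, close to the -1.30 of the controls. In all 4 conditions 33 members were lower in PANC1 and 3 were higher, and STC1, PNMA2, DPYSL2 and UBXN8 changed sign between conditions. RBPMS moved from 2.80 in the controls to 0.85 with gemcitabine and 0.26 with co-treatment, and SCARA3 from -0.28 to -1.91 and -1.95.

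**Figure D2:**
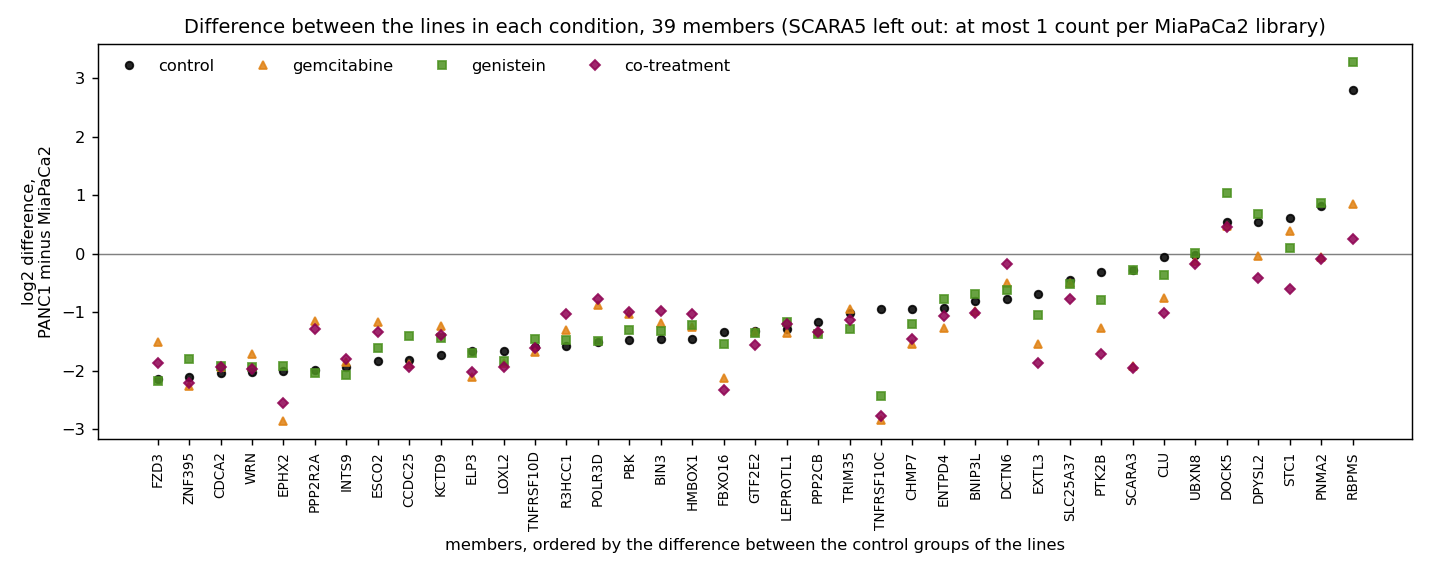
Log2 difference between the lines, PANC1 minus MiaPaCa2, in the controls (black circles) and under gemcitabine (orange triangles), genistein (green squares) and co-treatment (purple diamonds), for 39 members ordered by the control value. Most members keep their place below 0 in every condition, while RBPMS runs from 3.28 with genistein down to 0.26 with co-treatment and SCARA3, PTK2B and TNFRSF10C spread widely.

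Other genes of chromosome 8 were described in the same way. Of 18 other protein-coding genes tested inside the interval, 17 were lower in PANC1 in the controls, with a median log2 difference of -1.38. Within 10 Mb of the block, 19 of 27 genes on the telomere side and 22 of 24 on the centromere side were lower, with medians of -1.24 and -1.25. Beyond 10 Mb toward the telomere, 16 of 24 were lower, with a median of -0.69. On the long arm 58 of 288 genes were lower, and the median was 0.62. The lower levels were therefore not confined to the members, and the sign of the median changed between the arms of the chromosome. Outside chromosome 8, 45.1% of 12282 autosomal protein-coding genes were lower in PANC1, and the medians of the other 21 autosomes ran from -0.48 to 0.998.

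**Figure D3:**
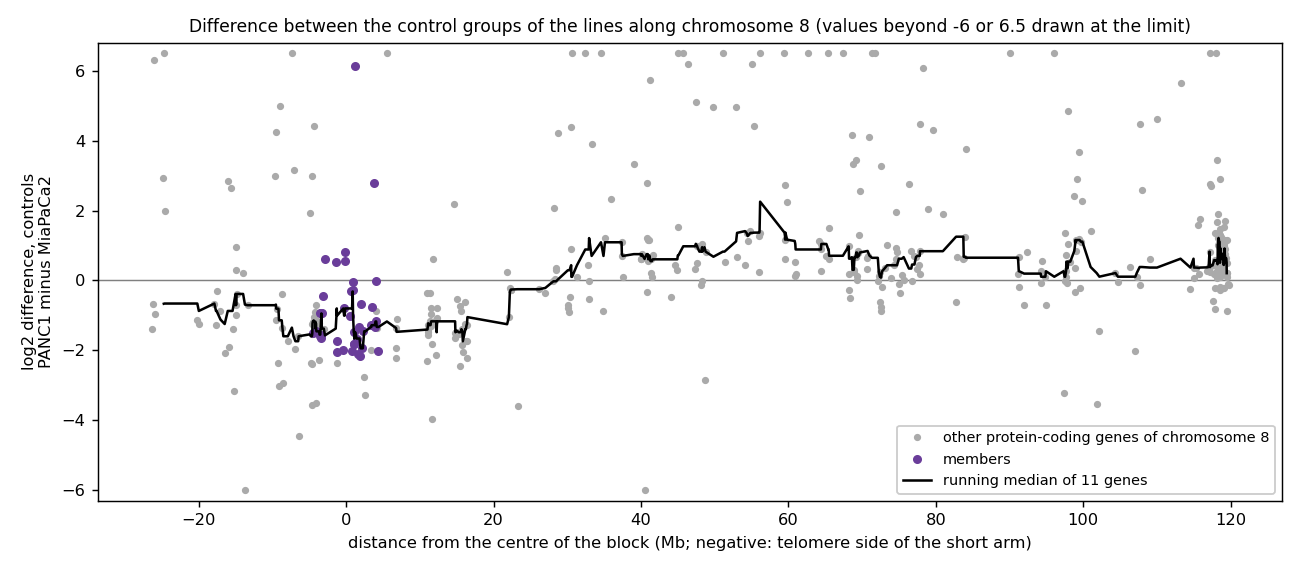
Log2 difference between the control groups, PANC1 minus MiaPaCa2, for protein-coding genes of chromosome 8 against distance in Mb from the centre of the block. Members are purple, other genes grey, and the black line is a running median of 11 genes, which stays below 0 through the short arm and above 0 over most of the long arm.

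Isoforms were compared as a readout that the choice of members did not use. Of 37 members with a gene sum of at least 1 FPKM in both lines, 31 had the same leading isoform in both. The leading isoform differed for CHMP7, PTK2B, CCDC25, PBK, ELP3 and RBPMS. For none of the 37 did the share held by the leading MiaPaCa2 isoform separate the 8 libraries of one line from those of the other. PBK, for example, had 43.3% of its FPKM in its leading isoform in MiaPaCa2, and 38.8% in a different leading isoform in PANC1. TNFRSF10D has 1 listed isoform, so neither its leading isoform nor its share could differ between the lines. The same isoform counts over all genes were not computed, so nothing about the block is read from them. The GC content of exons had a median of 47.5% over the 40 members and 48.1% over the tested genes.

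Partners and paralogues of the members, 27 genes listed with earlier results known, were examined in the controls. Of 23 that lie on other chromosomes, 6 were lower and 17 higher in PANC1, with a median log2 difference of 0.48. Of all autosomal protein-coding genes outside chromosome 8, 45.1% were lower, with a median of 0.11. Only 13 of the 23 passed the low-count filter within MiaPaCa2, and the rest entered through their PANC1 counts. The direction of the rest was thus set by the filter, and nothing is read from this split. For protein phosphatase 2A, the scaffold gene PPP2R1A ran from 451 to 606 FPKM in MiaPaCa2 and from 131 to 200.1 FPKM in PANC1, and the catalytic PPP2CA had a log2 difference of -0.67. The other scaffold gene PPP2R1B and the regulatory PPP2R2D had differences of 0.45 and 0.46. Paralogues of 3 members were near 0 FPKM in MiaPaCa2 and high in PANC1. BNIP3, the paralogue of BNIP3L, was at 0 to 0.0787 FPKM in MiaPaCa2 and 28.1 to 38.2 FPKM in PANC1. LOXL1, of the LOXL2 family, was at 0 to 0.391 FPKM against 50.8 to 89.3 FPKM, and STC2, the paralogue of STC1, at 0 to 0.0343 FPKM against 28.1 to 46.1 FPKM.

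Marker genes were checked against the labelled cells. KRT8 and KRT18, keratins of simple epithelia, and KRT19, a ductal keratin, were at 56.5 FPKM or more in every library, as was VIM, a mesenchymal filament gene, at 1398 FPKM or more. KRT7, another ductal keratin, was at 0.170 to 1.70 FPKM in MiaPaCa2 and 3.95 to 21.1 FPKM in PANC1, and CDH2, a mesenchymal cadherin, at 0 to 0.0102 and 8.06 to 13.01 FPKM. EPCAM and CDH1, which mark epithelial cells, ran from 2.70 to 13.2 FPKM in PANC1 and were at 0.0213 FPKM or less in MiaPaCa2. The acinar, endocrine and endothelial markers were at 0.170 FPKM or less in every library, and so were DCN, LUM, PTPRC and CD3E. The fibroblast gene COL1A1 and the macrophage gene CD68 were higher in PANC1, at 33.7 to 99.7 and 108.3 to 221 FPKM, than in MiaPaCa2, at 0.443 to 1.83 and 14.2 to 37.6 FPKM, and their part in the line differences was not tested.

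Drug responses were tested with limma-voom in each line. A gene is called here when its Benjamini-Hochberg adjusted p did not exceed 0.05, it moved by 0.4 or more in log2 units in either direction, and the treated libraries averaged over 1 FPKM. Of the 40 members, 18 were called in at least 1 of the 6 comparisons with control, 16 in MiaPaCa2 and 6 in PANC1, and 22 in none. Over all genes tested, 48.4% were called in at least 1 comparison, 45.3% in MiaPaCa2 and 18.4% in PANC1, beside 18 of 40, 16 of 39 and 6 of 40 members. In MiaPaCa2, 39 members were tested, SCARA5 being under the filter.

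**Figure D4:**
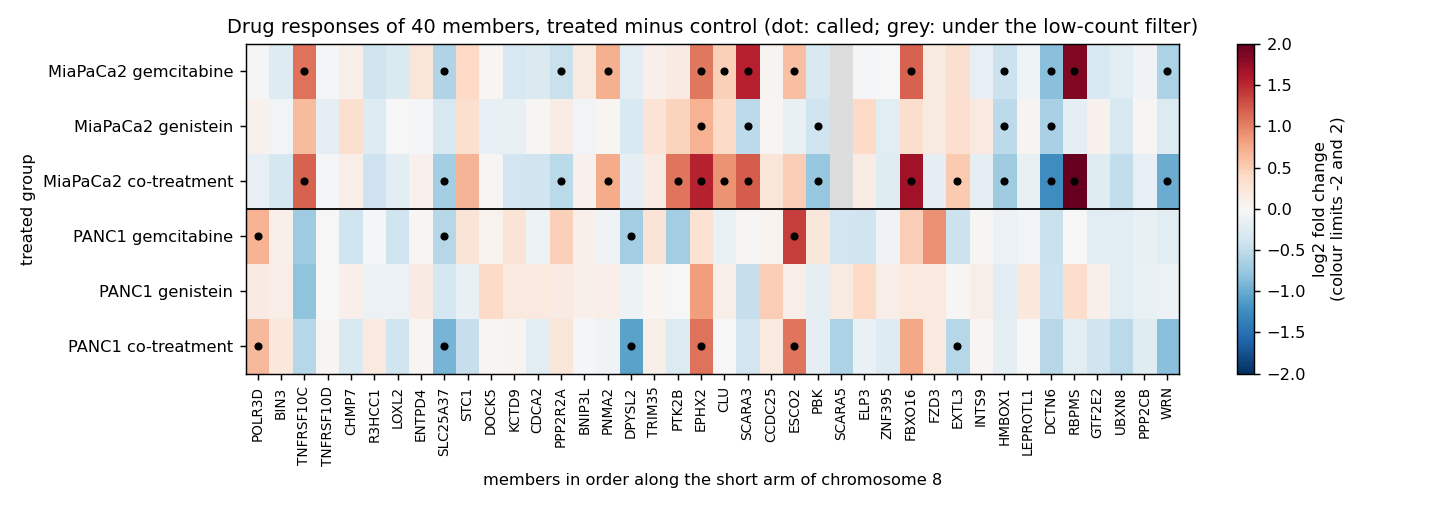
Log2 fold change against control for 40 members (columns, in order along the chromosome) in 6 comparisons (rows, MiaPaCa2 above the line and PANC1 below), with red for higher, blue for lower, grey for not tested and a black dot where the gene was called. Dots are spread along the whole block and are more frequent in MiaPaCa2, with 13, 5 and 15, than in PANC1, with 4, 0 and 6, as over all genes, of which 29.6%, 8.31% and 40.5% were called in MiaPaCa2 and 7.52%, 0.0591% and 17.1% in PANC1.

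With gemcitabine in MiaPaCa2, 13 of 39 members were called. Of these 8 rose, namely RBPMS, SCARA3, FBXO16, TNFRSF10C, EPHX2, PNMA2, ESCO2 and CLU, where 15.0% of all genes tested rose, and 5 fell, namely DCTN6, WRN, SLC25A37, PPP2R2A and HMBOX1, where 14.6% did. The median log2 fold change over the 39 was -0.02, against -0.01 over all genes. On the log2(FPKM + 1) scale DCTN6, HMBOX1, SLC25A37, WRN, ESCO2, FBXO16 and PPP2R2A were no longer called, and scaling by library size alone gave 9 members higher and 3 lower. The count was 8 without MiaPaCa2 gemcitabine replicate 1 and 8 without MiaPaCa2 control replicate 1.

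Co-treatment in MiaPaCa2 gave 15 calls. Of these 9 rose, where 20.3% of all genes did, and 6 fell, where 20.2% did, with a median of -0.14 over the members against -0.01 over all genes. The members called were those of gemcitabine alone except ESCO2, with EXTL3 and PTK2B added among those that rose and PBK among those that fell. On the log2(FPKM + 1) scale EXTL3, PTK2B, HMBOX1, SLC25A37 and PPP2R2A lost their co-treatment calls. Both comparisons use the same control libraries. Genistein alone gave 5 calls, with EPHX2 rising, where 4.18% of all genes did, and DCTN6, HMBOX1, SCARA3 and PBK falling, where 4.13% did, and a median of 0.03 over the members against -0.0036 over all genes. These genistein calls rested on single libraries, since 0 of the 39 members were called without either control replicate, 1 without genistein replicate 1 and 3 without genistein replicate 2.

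Among the members that rose in MiaPaCa2, RBPMS had the largest fold change. It was at 0.790 and 0.689 CPM in the controls, 3.14 and 2.64 with gemcitabine, 0.658 and 0.661 with genistein and 3.76 and 3.82 with co-treatment. These were 8 to 58 counts per library, and the groups with gemcitabine lay above the others without overlap. The log2 fold change was 1.86 (SE 0.31, limma-voom adjusted p = 0.000636) with gemcitabine and 2.24 (SE 0.31, adjusted p = 6.82e-05) with co-treatment. SCARA3 was at 23.2 and 25.1 CPM in the controls, 76.9 and 70.8 with gemcitabine, 17.7 and 16.5 with genistein and 54.0 and 63.1 with co-treatment. It thus rose with gemcitabine by 1.56 on the log2 scale (SE 0.11, adjusted p = 2.93e-06) and fell with genistein by 0.52 (SE 0.13, adjusted p = 0.0258). With co-treatment it rose by 1.22 (SE 0.12, adjusted p = 3.98e-06). The SCARA3 genistein call was lost when any 1 of its 4 libraries was left out, and on log2(FPKM + 1) and log2(FPKM + 0.1).

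EPHX2 rose under all 3 treatments in MiaPaCa2. Its values were 24.8 and 23.7 CPM in the controls, 53.6 and 51.1 with gemcitabine, 43.8 and 36.6 with genistein and 69.2 and 78.9 with co-treatment. No group overlapped another, and the log2 fold changes were 1.05 (SE 0.12), 0.69 (SE 0.12) and 1.55 (SE 0.12), with limma-voom adjusted p of 4.6e-05, 0.00547 and 7.78e-07. The EPHX2 genistein call was lost without either MiaPaCa2 control replicate. CLU was at 209 and 238 CPM in the controls, 316 and 324 with gemcitabine, 299 and 285 with genistein and 411 and 452 with co-treatment. Its rise was 0.47 (SE 0.08, adjusted p = 0.000964) with gemcitabine and 0.89 (SE 0.08, adjusted p = 3.38e-06) with co-treatment, and its change of 0.38 with genistein missed the fold criterion. The CLU gemcitabine call was lost without MiaPaCa2 control replicate 1 and under GC correction. PNMA2 was at 33.4 and 29.0 CPM in the controls, 53.9 and 52.3 with gemcitabine, 32.1 and 32.4 with genistein and 57.8 and 51.4 with co-treatment. The groups with gemcitabine lay above the rest, at log2 fold changes of 0.71 (SE 0.11, adjusted p = 0.000487) and 0.74 (SE 0.12, adjusted p = 0.00018).

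FBXO16, an F-box protein, and TNFRSF10C were scarce genes that also rose. FBXO16 was at 3.47 and 2.53 CPM in the MiaPaCa2 controls, 6.53 and 7.67 with gemcitabine, 3.53 and 4.16 with genistein and 9.37 and 10.9 with co-treatment. TNFRSF10C was at 1.58 and 1.07 CPM in the MiaPaCa2 controls, 3.32 and 2.64 with gemcitabine, 2.47 and 1.89 with genistein and 3.27 and 3.10 with co-treatment. For both, each treated library with gemcitabine lay above the controls. The log2 fold changes for FBXO16 were 1.17 (SE 0.22, limma-voom adjusted p = 0.00151) and 1.69 (SE 0.22, adjusted p = 4.42e-05). For TNFRSF10C they were 1.09 (SE 0.30, adjusted p = 0.0126) and 1.18 (SE 0.30, adjusted p = 0.00547). FBXO16 shares 51.7% of its exon length with ZNF395 on the same strand and TNFRSF10C 33.0% with other annotated genes, so their reads are assigned with uncertainty. The TNFRSF10C calls were lost without MiaPaCa2 control replicate 2, and the gemcitabine call also without gemcitabine replicate 1 (adjusted p up to 0.106).

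EXTL3 and PTK2B were called in MiaPaCa2 with co-treatment alone. EXTL3, a glycosyltransferase of heparan sulfate synthesis, stood at 98.8 and 94.8 CPM in the controls, 129 and 123 with gemcitabine, 131 and 116.4 with genistein and 140.3 and 150.2 with co-treatment. PTK2B was at 3.22 and 3.75 CPM in the controls, 4.59 and 3.52 with gemcitabine, 4.93 and 4.63 with genistein and 6.60 and 8.63 with co-treatment. Their log2 fold changes with co-treatment were 0.52 (SE 0.09, limma-voom adjusted p = 0.000339) and 1.07 (SE 0.22, adjusted p = 0.00126). Correction for GC content ended the EXTL3 call.

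Among the members that fell in MiaPaCa2, DCTN6, a dynactin subunit, and HMBOX1 were called under all 3 treatments. DCTN6 was at 12.5 and 10.9 CPM in the controls, 6.59 and 7.04 with gemcitabine, 6.66 and 8.26 with genistein and 6.11 and 4.42 with co-treatment. Each treated library lay below both controls, and the log2 fold changes were -0.83 (SE 0.19), -0.64 (SE 0.18) and -1.23 (SE 0.20), with limma-voom adjusted p of 0.00382, 0.0403 and 0.000247. HMBOX1 was at 19.6 and 17.1 CPM in the controls, 14.1 and 14.3 with gemcitabine, 12.1 and 13.6 with genistein and 12.5 and 10.9 with co-treatment. Its log2 fold changes were -0.42 (SE 0.14), -0.52 (SE 0.14) and -0.72 (SE 0.15), with adjusted p of 0.0303, 0.035 and 0.00134. Without MiaPaCa2 control replicate 1 the gemcitabine calls of both were lost, and that of HMBOX1 also without either gemcitabine replicate (adjusted p up to 0.430 over the alternatives). Their genistein calls were lost when any 1 of the 4 libraries was left out. DCTN6 shares part of its exon length with LEPROTL1 on the same strand.

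WRN, SLC25A37, PPP2R2A and PBK also fell in MiaPaCa2. WRN was at 33.7 and 33.4 CPM in the controls, 23.2 and 21.8 with gemcitabine, 25.1 and 30.3 with genistein and 21.5 and 14.4 with co-treatment. SLC25A37 was at 65.1 and 62.5 CPM in the controls, 44.8 and 42.1 with gemcitabine, 52.3 and 51.0 with genistein and 43.9 and 39.6 with co-treatment. For both, every treated library lay below the controls. With co-treatment the log2 fold changes were -0.999 (SE 0.17, limma-voom adjusted p = 0.000392) for WRN and -0.67 (SE 0.10, adjusted p = 0.000156) for SLC25A37. With gemcitabine they were -0.63 (SE 0.16, adjusted p = 0.00939) and -0.61 (SE 0.10, adjusted p = 0.000611). The WRN gemcitabine call was lost without either gemcitabine replicate or control replicate 1, and under GC correction. PPP2R2A was at 129 and 128 CPM in the controls, 93.6 and 101.8 with gemcitabine, 144 and 145 with genistein and 97.0 and 87.2 with co-treatment. Its log2 fold changes were -0.45 (SE 0.09, adjusted p = 0.00223) with gemcitabine and -0.54 (SE 0.09, adjusted p = 0.000362) with co-treatment, but correction for GC content removed both calls, and its co-treatment value became 0.0251. The PPP2R2A gemcitabine call was also lost without gemcitabine replicate 1. PBK was at 105.7 and 101.3 CPM in the controls, 87.5 and 86.9 with gemcitabine, 71.2 and 86.5 with genistein and 70.5 and 58.6 with co-treatment. It fell by 0.40 (SE 0.12, adjusted p = 0.0455) with genistein and by 0.75 (SE 0.12, adjusted p = 0.000239) with co-treatment on the log2 scale, and GC correction ended both calls.

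In PANC1 fewer members were called. Gemcitabine gave 4 of 40, with ESCO2 and POLR3D rising, where 4.49% of all genes tested did, and DPYSL2 and SLC25A37 falling, where 3.03% did. Co-treatment gave 6, with EPHX2, ESCO2 and POLR3D rising, where 10.2% did, and DPYSL2, SLC25A37 and EXTL3 falling, where 6.9% did. The medians over the members were -0.05 and -0.16, against 0.03 and 0.01 over all genes. Between replicates, the chi-square per degree of freedom over genes was 35.2 for the PANC1 controls and 2.86 to 21.6 for the other groups. It was computed on raw counts and rises with depth, and PANC1 control replicate 2 was the deepest library, at 31991860 counts. These values therefore do not rank the groups by how well their replicates matched. The gemcitabine calls were 0 without either gemcitabine replicate, 2 without control replicate 1 and 6 without control replicate 2, and the co-treatment calls ran from 4 to 7 over the libraries left out. On the log2(FPKM + 1) scale DPYSL2 and SLC25A37 lost their gemcitabine calls and EXTL3 its co-treatment call.

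Genistein alone in PANC1 gave 0 called members by limma-voom, where 0.0591% of all genes rose and 0.0% fell. The edgeR quasi-likelihood test also called 0 and the DESeq2 Wald test 1, EPHX2. At an unadjusted p under 0.05 there were 4 of 40 members, ELP3, EPHX2, SCARA3 and SLC25A37, against 19.2% of all genes.

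DPYSL2 and POLR3D were called in PANC1 and not in MiaPaCa2. DPYSL2 was at 94.0 and 94.0 CPM in the PANC1 controls, 57.6 and 55.5 with gemcitabine, 84.7 and 85.5 with genistein and 46.1 and 42.4 with co-treatment. The values under gemcitabine and co-treatment lay far below the rest, at log2 fold changes of -0.69 (SE 0.10, limma-voom adjusted p = 0.0094) and -1.07 (SE 0.11, adjusted p = 0.00118). In MiaPaCa2 it was at 63.8 and 65.2 CPM in the controls and between 49.9 and 62.1 CPM in the treated libraries. POLR3D was at 21.7 and 21.6 CPM in the PANC1 controls, 36.8 and 31.4 with gemcitabine, 23.4 and 23.8 with genistein and 33.4 and 33.6 with co-treatment. It rose by 0.69 (SE 0.13, adjusted p = 0.0198) and 0.65 (SE 0.13, adjusted p = 0.0126) on the log2 scale, while in MiaPaCa2 its 8 libraries stayed between 56.7 and 68.6 CPM. The gemcitabine calls of both genes were lost without either PANC1 gemcitabine replicate, and that of POLR3D also without control replicate 1 (adjusted p up to 0.165 over the alternatives).

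ESCO2, SLC25A37, EPHX2 and EXTL3 were called in both lines. ESCO2 was at 6.57 and 9.91 CPM in the PANC1 controls, 19.4 and 22.1 with gemcitabine, 7.90 and 9.55 with genistein and 19.9 and 14.6 with co-treatment. It rose by 1.39 (SE 0.25, limma-voom adjusted p = 0.0184) with gemcitabine and 1.08 (SE 0.26, adjusted p = 0.0243) with co-treatment. In MiaPaCa2 it went from 30.6 and 28.0 CPM to 48.8 and 44.2 with gemcitabine, a log2 fold change of 0.61 (SE 0.20, adjusted p = 0.0281), and was at 22.9 and 30.1 with genistein and 54.7 and 33.9 with co-treatment. The MiaPaCa2 call was lost when any 1 of its 4 libraries was left out, with an adjusted p up to 0.180 over the alternatives. The PANC1 gemcitabine call was lost without either gemcitabine replicate, with an adjusted p up to 0.162, and the co-treatment call without co-treatment replicate 1 or control replicate 1.

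SLC25A37 in PANC1 was at 50.8 and 44.1 CPM in the controls, 31.7 and 29.8 with gemcitabine, 33.6 and 38.4 with genistein and 24.8 and 24.1 with co-treatment. All treated libraries lay below the controls, and it fell by 0.57 (SE 0.12, limma-voom adjusted p = 0.0301) with gemcitabine and 0.92 (SE 0.13, adjusted p = 0.00296) with co-treatment on the log2 scale. The gemcitabine call was lost without either gemcitabine replicate or control replicate 1, with an adjusted p up to 0.275. EPHX2 in PANC1 was at 5.97 and 6.10 CPM in the controls, 7.18 and 7.24 with gemcitabine, 10.2 and 10.8 with genistein and 13.02 and 12.3 with co-treatment, and was called with co-treatment at 1.09 (SE 0.15, adjusted p = 0.00276). EXTL3 in PANC1 went the other way than in MiaPaCa2, at 68.5 and 54.0 CPM in the controls, 45.4 and 41.2 with gemcitabine, 60.6 and 58.8 with genistein and 36.4 and 43.2 with co-treatment. It fell by 0.58 (SE 0.14, adjusted p = 0.0251) with co-treatment, a call that was lost without PANC1 co-treatment replicate 1 or control replicate 1, with an adjusted p up to 0.180 over the alternatives.

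The 12 members called in MiaPaCa2 alone were at these levels in PANC1. RBPMS lay between 4.17 and 7.37 CPM, SCARA3 between 13.2 and 23.2, CLU between 182 and 238 and PNMA2 between 47.9 and 58.9. PPP2R2A was at 31.5 and 32.9 CPM in the PANC1 controls, 41.7 and 45.8 with gemcitabine, 35.5 and 35.1 with genistein and 40.3 and 35.6 with co-treatment. Its log2 fold change of 0.48 with gemcitabine in PANC1 had an adjusted p of 0.0566 by limma-voom. WRN was at 5.67 and 11.1 CPM in the PANC1 controls and 6.13 and 3.32 with co-treatment, so its lower control lay within the range of the treated libraries. The 6 treated DCTN6 libraries, from 4.29 to 5.63 CPM, all lay below the PANC1 controls at 6.47 and 7.16 CPM, although the gene was not called. HMBOX1 ran from 5.33 to 7.16 CPM, PBK from 26.2 to 46.0, FBXO16 from 0.953 to 2.59, PTK2B from 1.37 to 3.41 and TNFRSF10C from 0.235 to 0.903 over the 8 PANC1 libraries.

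Whether a response differed between the lines was tested as an interaction in 1 limma-voom model of all 16 libraries, by the adjusted p alone. For gemcitabine 11 of 40 members passed, where 15.3% of all genes did, and for co-treatment 12 of 40, where 18.1% did. The response in PANC1 was the lower one for 9 of the 11 and 10 of the 12, and the higher one for PPP2R2A and POLR3D in both. The split by direction over all genes that passed was not computed, so nothing about the block is read from it. The gemcitabine count was 7 without MiaPaCa2 control replicate 1. For genistein 0 of 40 passed by limma-voom, where 0.0336% of all genes did. The edgeR quasi-likelihood and DESeq2 Wald tests also gave 0, and 2 members, CLU and TNFRSF10C, had an unadjusted p under 0.05, against 11.5% of all genes. On the log2(FPKM + 1) scale EXTL3, DPYSL2, EPHX2, CHMP7 and PNMA2 no longer passed for gemcitabine, nor EXTL3, PTK2B, CHMP7, STC1 and PNMA2 for co-treatment. Control libraries that served in choosing the members enter these differences too.

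RBPMS and SCARA3 differed by a large amount. The RBPMS response in PANC1 was lower than that in MiaPaCa2 by a log2 difference of -1.94 (SE 0.31, limma-voom adjusted p = 0.00228) for gemcitabine and -2.54 (SE 0.32, adjusted p = 0.000201) for co-treatment. For SCARA3 these were -1.63 (SE 0.22, adjusted p = 0.000665) and -1.67 (SE 0.23, adjusted p = 0.000356). CLU, PNMA2, EXTL3 and DPYSL2 also passed for both treatments, with co-treatment values of -0.97, -0.90, -1.18 and -0.96. POLR3D passed in the other direction, at 0.64 (SE 0.14, adjusted p = 0.00976) and 0.74 (SE 0.14, adjusted p = 0.0033), and PPP2R2A at 0.84 and 0.71, values that no longer passed after GC correction. For gemcitabine, CLU no longer passed without MiaPaCa2 control replicate 1, and DPYSL2 without that library or PANC1 gemcitabine replicate 2.

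**Figure D5:**
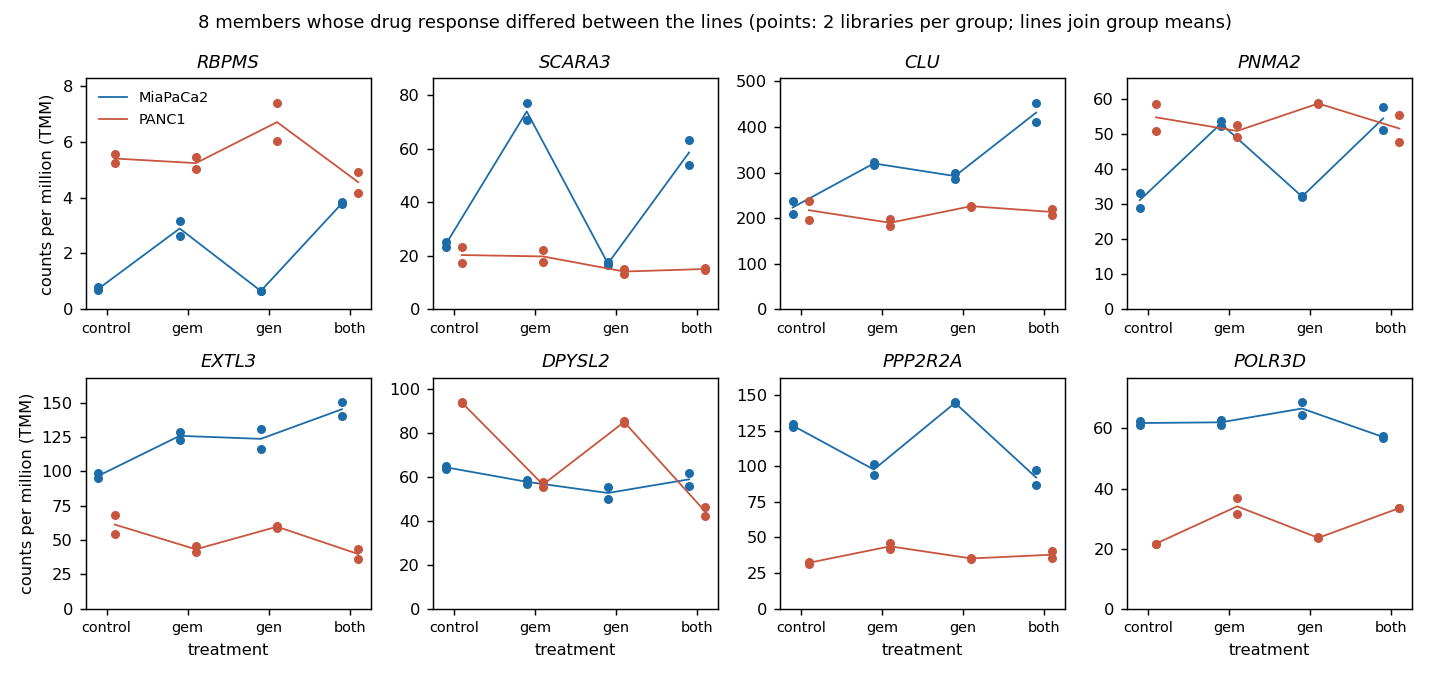
Level in CPM (TMM) of 8 members whose gemcitabine and co-treatment responses differed between the lines, by treatment (gem, gemcitabine; gen, genistein; both, co-treatment), with 1 point per library, 2 per group, and lines joining group means; each axis starts at 0. RBPMS, SCARA3, CLU and PNMA2 climb in MiaPaCa2 (blue) under gemcitabine and co-treatment and stay level in PANC1 (red), while DPYSL2 drops in PANC1 from 94.0 CPM in both controls to 46.1 and 42.4 CPM with co-treatment.

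The other members that passed were CHMP7, EPHX2, PTK2B, STC1 and TNFRSF10C, of which PTK2B, STC1 and TNFRSF10C had small counts. CHMP7 was at 83.5 and 80.1 CPM in the MiaPaCa2 controls and 91.2 and 92.1 with gemcitabine, and at 46.7 and 39.6 CPM in the PANC1 controls and 30.5 and 32.2 with gemcitabine. It was called in neither line, and the difference between the responses was -0.61 (SE 0.14, limma-voom adjusted p = 0.0126). EPHX2 passed for gemcitabine at -0.85 (SE 0.19, adjusted p = 0.0126) and had an adjusted p of 0.0608 for co-treatment. PTK2B passed for co-treatment at -1.40 (SE 0.36, adjusted p = 0.0179), with 2.28 and 2.29 CPM in that PANC1 group and 3.41 and 2.41 CPM in the PANC1 controls. STC1 passed for co-treatment at -1.22 (SE 0.32, adjusted p = 0.0191), at 1.64 and 1.69 CPM in the MiaPaCa2 controls, 2.91 and 2.70 with co-treatment there, 2.61 and 2.56 in the PANC1 controls and 1.90 and 1.78 with co-treatment there. TNFRSF10C passed for gemcitabine and co-treatment at -1.89 and -1.83, with 0.235 to 0.903 CPM in PANC1. For gemcitabine, EPHX2 no longer passed without PANC1 gemcitabine replicate 2 and CHMP7 without either MiaPaCa2 control or PANC1 gemcitabine replicate 1. For co-treatment, PTK2B and STC1 no longer passed without any 1 of 4 libraries, among them MiaPaCa2 control replicate 1, MiaPaCa2 co-treatment replicate 2 and PANC1 co-treatment replicate 1. CHMP7 no longer passed for co-treatment without any 1 of 5 of the 8 libraries involved, nor with scaling by library size alone. The TNFRSF10C differences were each lost when any of 7 of the 8 libraries involved was left out, with an adjusted p up to 0.110 for gemcitabine and 0.161 for co-treatment over the alternatives.

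The listed partners on other chromosomes were also read under the drugs, 13 of them tested in MiaPaCa2 and 23 in PANC1. In MiaPaCa2, 1 was called higher and 2 lower with gemcitabine, 0 and 2 with genistein, and 1 and 3 with co-treatment, and in PANC1 2 were called higher with co-treatment. Over all genes tested these shares were 15.0% and 14.6%, 4.18% and 4.13%, 20.3% and 20.2%, and 10.2% in PANC1. Nothing is read from these counts, and the partner calls were not checked under the alternatives or with a library left out. ESCO1, the paralogue of ESCO2, was called lower in MiaPaCa2 with gemcitabine, genistein and co-treatment, at log2 fold changes of -1.56, -1.74 and -2.32. Its FPKM ran only from 0.893 to 2.85 over the MiaPaCa2 libraries, near the criterion of 1 and a smaller span than the co-treatment change from counts. ESCO2 was called higher there with gemcitabine, a call lost when any 1 of 4 libraries was left out. PPP2CA was called lower in MiaPaCa2 at -0.43 with gemcitabine and -0.55 with co-treatment. PPP2R2A was called lower there too, but its calls were lost under GC correction, which was not applied to PPP2CA. Of RecQ helicases related to WRN and on other chromosomes, RECQL5 was called higher in MiaPaCa2 at 0.54 with gemcitabine and 0.65 with co-treatment. In PANC1 RECQL5 was called higher at 0.74 with co-treatment. RECQL was called lower in MiaPaCa2 at -0.66 with genistein, and BLM was called in no comparison. RECQL4, on the long arm of chromosome 8, was called higher in MiaPaCa2 at 0.71 with gemcitabine and 0.97 with co-treatment. TOPBP1 was called lower in MiaPaCa2 with co-treatment at -0.64, and SLC25A28, the paralogue of SLC25A37, higher in PANC1 with co-treatment at 0.44. BNIP3, LOXL1 and STC2, near 0 FPKM in MiaPaCa2, were not called in PANC1 under any of the 3 treatments.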

How the data were processed

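Poly-A RNA of 16 cell line libraries (Illumina TruSeq Stranded mRNA kit) was analysed. The authors mapped single reads to GRCh37 with TopHat2 2.0.4, removed multiply aligned reads with Picard 1.29 and deposited whole-number counts per gene from HTSeq 0.6.1, without normalization. They also deposited FPKM per gene and per isoform from Cufflinks 2.1.1. The strand setting and the annotation release are not given in the sources used here. Groups came from the labels.

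The members and the lists of roles, partners and markers were chosen with earlier results of these data known. Tests used the voom method of limma 3.58.1 in R 4.3.3 after TMM normalization and filterByExpr of edgeR 4.0.16, with 8 libraries in 1 model per line for drug responses and 16 libraries for differences between lines, with Benjamini-Hochberg adjustment over every gene tested. The procedure was tested on simulated counts. Libraries held 12943482 to 31991860 counts (median 16059396.5), and few counts limit TNFRSF10C, RBPMS and STC1. FPKM rows of 1 gene were summed, and 176 genes without an FPKM row could not be called. Gene positions came from GENCODE v44 lifted to GRCh37, which matched 43 members by identifier and NEFL by symbol.

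Values per library were given by rule for the 6 members with the largest and the 4 with the smallest line difference, for members called in 2 or more drug comparisons and for those whose response differed between lines. Alternatives were edgeR's quasi-likelihood test, DESeq2 1.42.0 (Wald test, size factors), library size alone, no filter, limma-trend on log2(FPKM + 1) and log2(FPKM + 0.1), the replicate block, GC correction (loess, span 0.3) with and without the block, no FPKM or fold criterion, and each library left out.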

Additional observations from a re-analysis of the deposited data

Results flagged for a closer look

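The drug response of these members differed between PANC1 and MiaPaCa2 by the interaction test of limma-voom, each value being the PANC1 response minus the MiaPaCa2 response in log2 units. For gemcitabine the members were RBPMS (-1.94), TNFRSF10C (-1.89), SCARA3 (-1.63), PNMA2 (-0.88), EXTL3 (-0.86), EPHX2 (-0.85), CLU (-0.71), CHMP7 (-0.61), DPYSL2 (-0.58), POLR3D (0.64) and PPP2R2A (0.84). For co-treatment they were RBPMS (-2.54), TNFRSF10C (-1.83), SCARA3 (-1.67), PTK2B (-1.40), STC1 (-1.22), EXTL3 (-1.18), CLU (-0.97), DPYSL2 (-0.96), PNMA2 (-0.90), CHMP7 (-0.52), PPP2R2A (0.71) and POLR3D (0.74). Several of these no longer passed under alternatives, among them PPP2R2A under GC correction and CHMP7 for co-treatment under scaling by library size alone. With 2 libraries per group, no library could be tested as standing apart within its group.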

How the results depend on the processing

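With 2 libraries per group, counts of called members depended on single libraries. Leaving out each in turn gave 8 to 11 members for MiaPaCa2 gemcitabine, 0 to 3 for genistein and 15 to 18 for co-treatment, 0 to 6, 0 to 0 and 4 to 7 for PANC1 in the same order, and 7 to 12, 0 to 0 and 8 to 15 for the differences between lines. The median line difference in the controls ran from -1.32 to -1.20. On log2(FPKM + 1) and log2(FPKM + 0.1), MiaPaCa2 gemcitabine gave 7 and 7 calls, genistein 1 and 1, the gemcitabine difference 6 and 6, and log2(FPKM + 0.1) gave 7 for the co-treatment difference. The control line median was -1.06 and -1.09 on these scales and -1.15 without the filter, and on log2(FPKM + 1) it was -0.98, -1.06 and -0.95 under gemcitabine, genistein and co-treatment. For MiaPaCa2 genistein, against 5, the count was 3 with DESeq2, 2 without the filter and 9 without the fold criterion. For PANC1 gemcitabine, against 4, it was 7 with DESeq2 and 8 with GC correction, and for PANC1 genistein, against 0, it was 1 and 2. GC correction turned the PPP2R2A co-treatment response in MiaPaCa2 from -0.54 to 0.0251. The causes were not tested.

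Replicate numbers are shared by all groups but did not line up consistently. Correlations of deviations between same-numbered libraries ran from -0.227 to 0.125 in MiaPaCa2 and from -0.520 to 0.295 in PANC1. Whether libraries shared a batch in another arrangement was not tested. With the replicate block, the counts were 2 for MiaPaCa2 genistein (EPHX2 and SCARA3) and 1 for PANC1 gemcitabine (DPYSL2, with POLR3D, ESCO2 and SLC25A37 lost), and with block and GC correction 7 for PANC1 gemcitabine and 2 for PANC1 genistein, while PPP2R2A was at 0.0247.

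Scaling by library size alone shifted the median response over all genes, in log2 units, from -0.01 to 0.09 for MiaPaCa2 gemcitabine, from 0.03 to 0.14 for PANC1 gemcitabine and from 0.01 to 0.17 for PANC1 co-treatment. The members called higher and lower were then 9 and 3, against 8 and 5, for MiaPaCa2 gemcitabine. The 66 single calls were checked 746 times under alternatives, of which 644 kept direction and call, 100 lost the call and 2 changed sign. For the drug calls the 746 include dropping the FPKM or the fold criterion, where no call could be lost. Those checks count among the 644 and raise it. Of 356 checks with a library left out, 275 kept the call and 81 lost it. In MiaPaCa2 gemcitabine, EPHX2, RBPMS, SCARA3 and PNMA2 kept their calls throughout.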
